A study of Mus musculus with 10 samples.

Results

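Mitochondrial complex I, the NADH:ubiquinone oxidoreductase, is the entry point of the respiratory chain for electrons from NADH. It is L-shaped: a peripheral arm in the matrix holds the flavin, the iron-sulfur clusters and the quinone site, and a membrane arm pumps protons. A few subunits are made inside the mitochondrion from mitochondrial DNA, and the others, described here, are encoded in the nucleus and imported. Heart muscle is rich in this enzyme because contraction depends on oxidative ATP production.

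The genes described are 35 nuclear genes of complex I, chosen by symbol from the Ndufa, Ndufab1, Ndufb, Ndufc, Ndufs and Ndufv names. All 35 were found in both expression tables, among 46786 genes at 3 months and 46977 at 12 months. They comprise 12 Ndufa genes, Ndufab1, 10 Ndufb genes, 2 Ndufc genes, 7 Ndufs genes and 3 Ndufv genes. Of the conserved catalytic core subunits encoded in the nucleus, 6 are in the set (Ndufv1, Ndufv2, Ndufs1, Ndufs3, Ndufs7 and Ndufs8). Ndufa4 was counted with complex IV.

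RNA was sequenced from whole mouse hearts labelled control or Prdm16 knockout, and the series title names mitochondrial dysfunction as part of the phenotype. Prdm16 encodes a zinc-finger transcriptional regulator. The 4 groups were control hearts at 3 months (3 libraries), Prdm16 knockout hearts at 3 months (3 libraries), control hearts at 12 months (2 libraries) and Prdm16 knockout hearts at 12 months (2 libraries). The sources used here do not give the strain, the control genotype, the allele or the cells in which Prdm16 was deleted. No label ties a library to its own animal, and the p-values below cover only the spread among the libraries, which may be technical. Values are FPKM, fragment counts scaled to transcript length and to the mapped fragments of the library.

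Prdm16 itself was at 1.44, 2.23 and 1.61 FPKM in the 3-month controls and 1.43, 0.76 and 2.03 FPKM in the knockouts, so the ranges overlapped. At 12 months it was at 6.31 and 5.05 FPKM in the controls and 4.02 and 3.58 FPKM in the knockouts. Of 12 heart muscle markers (Myh6, Tnnt2 and others), 11 were detected in every library, and Ryr2 was listed at 0 in 1 library, control replicate 2 at 3 months, which can be a failed estimate. Their summed level was 32261 to 40233 FPKM in controls and 41569 to 43559 FPKM in knockouts at 3 months. At that age Myl2, Csrp3 and Tnni3 were higher in every knockout, and the other heart muscle markers overlapped. At 12 months the summed level was 69178 to 69257 against 72368 to 75979 FPKM. Myl2, the most abundant of them, was then at 24005 and 23974 FPKM in controls and 26368 and 31941 FPKM in knockouts. Pln, Actn2, Csrp3 and Tnnc1 were also higher in both 12-month knockouts, Ryr2 and Ttn were lower in both, and the other markers overlapped. Red blood cell markers differed between the labels in opposite directions at the 2 ages, with summed levels of 818 to 1113 FPKM in controls against 2081 to 3111 FPKM in knockouts at 3 months, and 10647 to 10783 against 1956 to 2157 FPKM at 12 months. Xist and the Y-linked genes separated the labels completely at 12 months, with Xist at 31.0 and 33.1 FPKM in controls and 0.024 and 0.0911 FPKM in knockouts, and did not do so at 3 months. At 12 months the genotype label and sex-linked expression cannot be told apart. In whole hearts, fewer cells of a type and less RNA per cell cannot be told apart.

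At 3 months every complex I gene had a higher mean in the knockout hearts, and the differences were modest. The median log2 difference over the 35 genes was 0.40, with a range from 0.08 for Ndufs1 to 0.62 for Ndufa13. All 12200 genes tested had a median of 0.09, and 65.0% of them were above 0. None of the 35 genes passed an adjusted p of 0.05 in limma with Benjamini-Hochberg adjustment (lowest adjusted p = 0.12, Ndufa13), where 0.746% of all genes did. At an unadjusted p under 0.05, 20 of the 35 were higher, against 15.9% of all genes tested. In 23 of the 35 every knockout library was above every control library, against 20.1% of all genes. None had every knockout below every control, against 4.6% of all genes.

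At 12 months 33 of the 35 were higher in knockout hearts, with a median log2 difference of 0.18 and a range from −0.02 for Ndufb6 to 0.41 for Ndufb3. The median over all 13179 genes tested was 0.01, and 51.5% were above 0. No complex I gene passed the test (limma, lowest adjusted p = 0.388, Ndufa10), where 0.395% of all genes did, and none was under an unadjusted p of 0.05, where 7.58% of all genes were higher at that level. Both knockout libraries were above both controls in 20 of the 35 genes, against 27.3% of all genes, and below both in none, against 23.0% of all genes.

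Markers of other cell types differed between the labels as well. At 3 months 7 atrial markers (Nppa, Myl7 and others) summed to 721 to 6212 FPKM in controls and 12333 to 28710.5 FPKM in knockouts. Knockout replicate 2, the highest library for complex I, was also the highest here. Nppa and Stard10 were higher in every knockout, and the other atrial markers overlapped. Myl7 was at 84.2, 39.4 and 779 FPKM in controls and 113, 2568 and 891 FPKM in knockouts. The 8 lymphocyte markers summed to 3.03 to 4.50 FPKM in controls and 10.5 to 15.5 FPKM in knockouts. Cd3g overlapped, and the other lymphocyte markers were higher in every knockout. The 7 skeletal muscle markers, with Myh4 at 0 in every library, summed to 23.6 to 32.6 and 41.4 to 59.5 FPKM. Casq1 made up most of that sum, at 28.8, 21.2 and 21.95 FPKM in controls and 37.6, 48.9 and 53.7 FPKM in knockouts. Tnni2 was also higher in every knockout, and Actn3, Mylpf, Tnnt3 and Myh1 overlapped. The 6 endothelial markers summed to 678 to 772 and 795 to 879 FPKM. Sums of fibroblast, macrophage and adipocyte markers overlapped between the 3-month groups. Of the endothelial list, Egfl7 was higher in every knockout, and the other markers, Pecam1 and Fabp4 among them, overlapped.

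At 12 months the atrial sum was 6198 to 6358 FPKM in controls and 13647 to 15904 FPKM in knockouts. Nppa led it, at 3313 and 3234 FPKM in controls and 15104 and 11263 FPKM in knockouts. Stard10 was also higher in both knockouts, and Sbk2 overlapped. The other atrial markers, Myl7, Myl4, Sln and Bmp10, were lower in both knockouts, with Myl7 at 1275 and 1244 against 153 and 749 FPKM. The endothelial sum was 907 to 915 FPKM in controls and 1006 to 1615 FPKM in knockouts. The adipocyte sum was 639 to 645 FPKM in controls and 729 to 1401 FPKM in knockouts. Fabp4, counted in the adipocyte and endothelial sums, was at 587 and 586 against 704 and 1358 FPKM. Adipoq, Plin1, Cidec and Ucp1 were lower in both knockouts, and Cidea overlapped. Kdr, Egfl7 and, narrowly, Cdh5 were lower in both knockouts, and Pecam1 and Tie1 overlapped. The macrophage sum was 140.2 to 142 and 162 to 171 FPKM. C1qa, C1qb and Cd68 were higher in both knockouts, Adgre1 and Csf1r lower in both, and Mrc1 overlapped. The fibroblast sum was lower in knockouts, at 743 to 843 against 1054 to 1066 FPKM. Dcn was higher in both knockouts, and the other fibroblast markers were lower in both. The lymphocyte sum was also lower, at 2.43 to 8.94 against 9.89 to 11.4 FPKM. Cd3e, Cd3g, Nkg7 and Gzma of that list overlapped, and its other markers were lower in both knockouts. Skeletal muscle sums overlapped. The part of these cell types in the complex I differences was not tested.

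**Figure D1:**
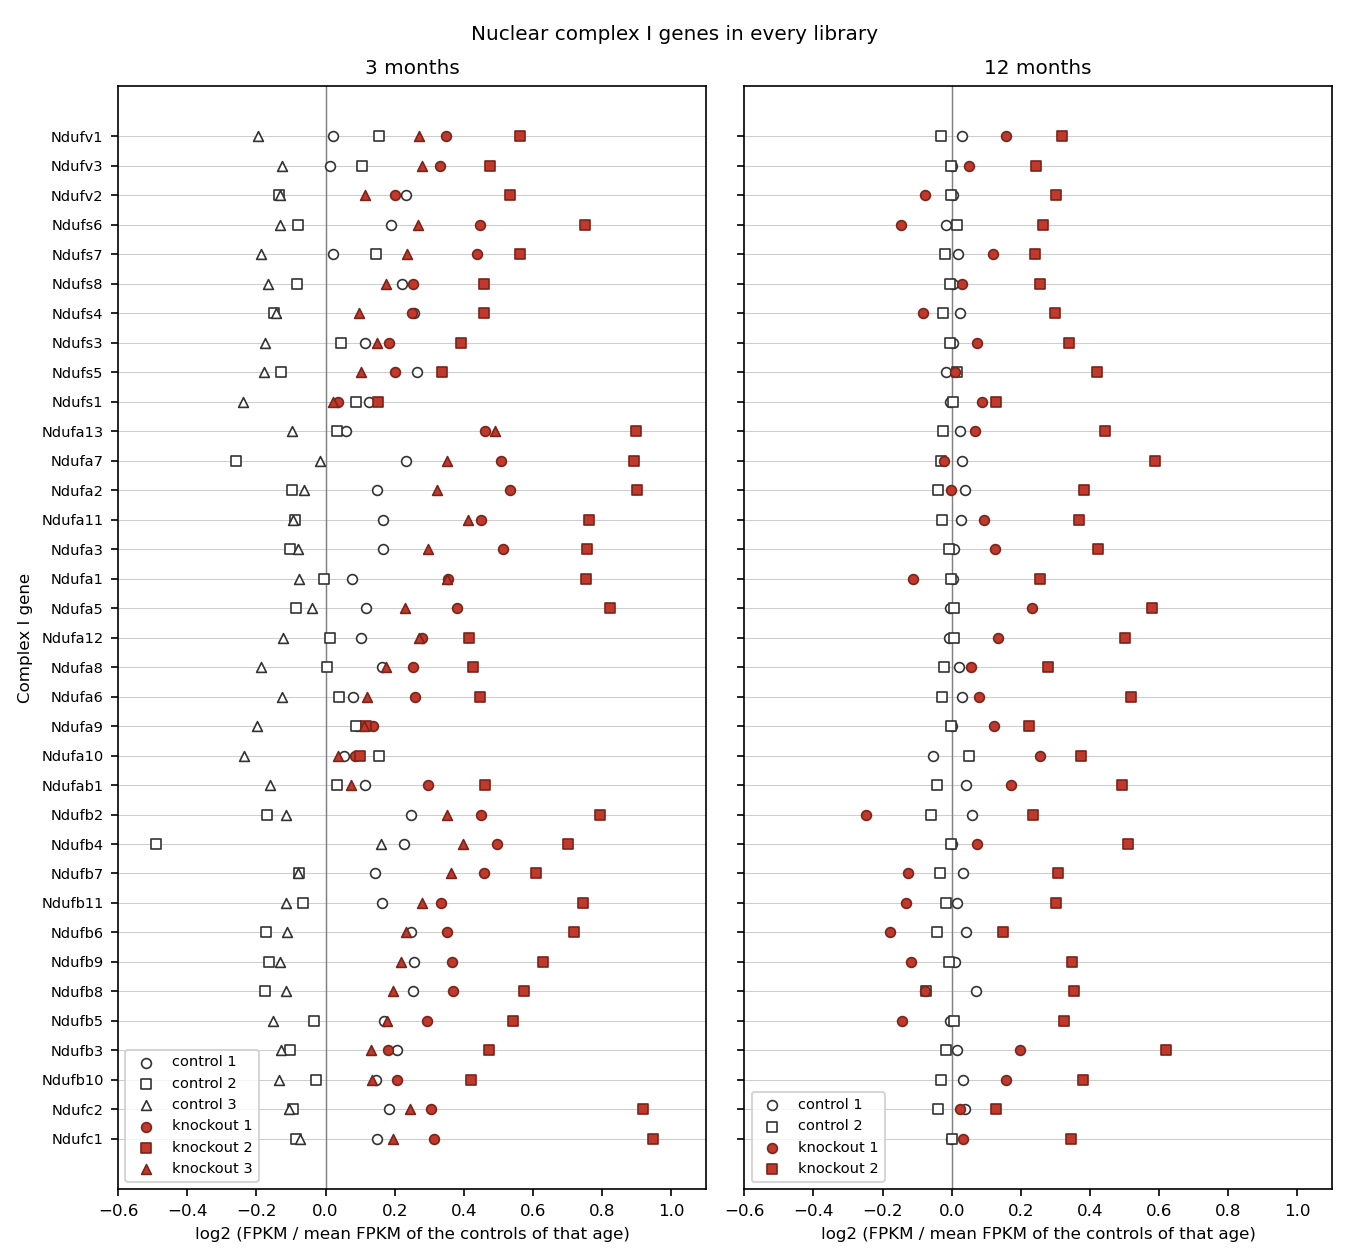
Level of each of the 35 complex I genes in each library (x axis, log2 of FPKM over the mean FPKM of the controls of that age), with genes on the y axis grouped by family, open symbols for controls and filled symbols for knockouts. Knockout replicate 2 lies farthest to the right for 33 of 35 genes at 3 months and for all 35 at 12 months, and control replicate 1 is the highest control for 31 of 35 genes at 3 months.

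The libraries ranked in nearly the same way for gene after gene. At 3 months knockout replicate 2 was the highest of the 6 libraries in 33 of 35 genes; Ndufa9 and Ndufa10 were the exceptions, with knockout replicate 1 and control replicate 2 the highest. Control replicate 3 was the lowest library in 23 genes and control replicate 2 in the other 12. The median log2 ratio of the 35 genes to the control mean was 0.17, −0.073 and −0.12 in controls 1 to 3 and 0.33, 0.57 and 0.23 in knockouts 1 to 3. Control replicate 1 thus stood close below knockout replicate 3, and it overlapped the knockouts in 12 genes. Without knockout replicate 2 the median difference was 0.29. The 23 genes with groups apart could not change in number, because this library was the lowest knockout in 0 of 35 genes.

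The 12-month controls lay at 0.016 and −0.016, knockout replicate 1 at 0.050 and knockout replicate 2 at 0.34. Knockout replicate 2 was the highest library in all 35 genes. Knockout replicate 1 was above both controls in 20 genes, between them in 4 and below both in 11. The 12-month difference of the whole set therefore rested on 1 library: without knockout replicate 2 the median was 0.05 and 22 of 35 genes were higher. Without knockout replicate 1 the median was 0.34 and 30 of the 35 were called higher by limma, where 18.6% of all genes were called higher as well. That fit assumed the lone knockout library to vary as little as the controls did. The 12-month controls were close to each other, with a robust SD of log2 ratios of 0.088 across genes of at least 10 FPKM, where the 2 knockouts differed by 0.389.

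**Figure D2:**
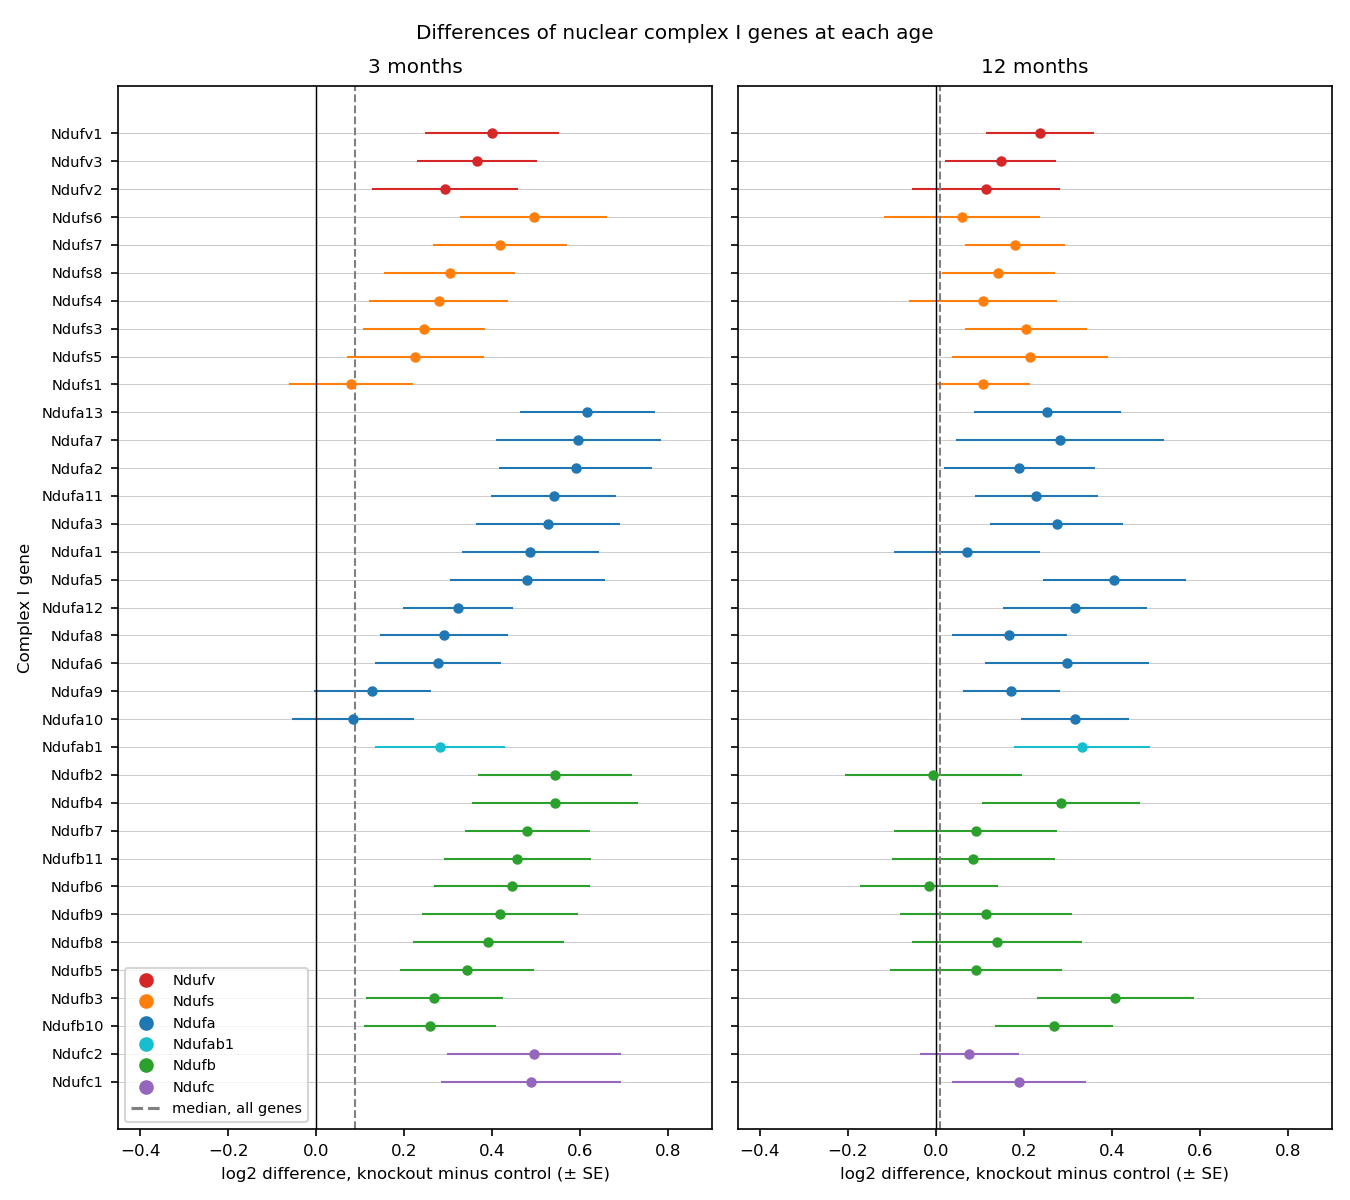
Log2 difference, knockout minus control, of each complex I gene (point) with its limma standard error (bar), coloured by family, at 3 and 12 months; the dashed line is the median of all genes tested, 0.09 and 0.01. At 3 months all 35 points lie above 0, and at 12 months Ndufb2 and Ndufb6 lie just below it.

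The NADH-oxidising tip of the peripheral arm includes Ndufv1, Ndufv2 and Ndufs1. Ndufv1 (ENSMUSG00000037916.13, chr19:4007384-4012806, minus strand, GRCm38), which binds NADH and the flavin, was at 495, 543 and 426 FPKM in the 3-month controls and 621, 721 and 588 FPKM in the knockouts. All 3 knockouts were above all 3 controls, a log2 difference of 0.40 ± 0.15 (SE). At 12 months Ndufv1 was at 599.5 and 574 FPKM in controls and 654 and 731 FPKM in knockouts, again without overlap, with a log2 difference of 0.24 ± 0.12 (SE).

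Ndufv2, which carries an iron-sulfur cluster next to the flavin, was at 331, 256 and 257 FPKM in the 3-month controls and 323, 407 and 304 FPKM in the knockouts. Control replicate 1 lay above 2 of the 3 knockouts. Its 12-month values were 452 and 450.1 FPKM in controls and 428 and 556 FPKM in knockouts, which placed the controls between the knockout libraries. Ndufv3, an accessory partner of these subunits, had groups apart at both ages, with log2 differences of 0.36 and 0.15.

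Ndufs1 (ENSMUSG00000025968.16, chr1:63143596-63176833, minus strand), the large iron-sulfur subunit, had the smallest 3-month difference of the set. It was at 232, 226 and 180.0 FPKM in the controls and 218, 236 and 216 FPKM in the knockouts. The 2 groups covered much the same range, with control replicate 3 alone below it (log2 difference 0.08 ± 0.14, SE), and under median-of-ratios scaling the difference was −0.03. At 12 months Ndufs1 was at 391 and 394 FPKM in controls and 417 and 429 FPKM in knockouts, which did not overlap. That log2 difference, 0.11 ± 0.11 (SE), was as large as its standard error.

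Downstream of the tip, Ndufs3, Ndufs7 and Ndufs8 belong to the quinone-binding part of the peripheral arm. Ndufs7, which carries the terminal iron-sulfur cluster, was at 539, 589 and 467 FPKM in the 3-month controls and 719.8, 786 and 626 FPKM in the knockouts. It was the largest 3-month difference of the 6 core subunits, at 0.42 ± 0.15 (SE) with no overlap, and at 12 months it was at 465 and 454 FPKM against 499 and 543 FPKM. Both ages put every knockout above every control for this gene.

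Ndufs8, a further iron-sulfur subunit, was at 186, 151 and 142 FPKM in the 3-month controls and 190.3, 219 and 180.0 FPKM in the knockouts. Control replicate 1 exceeded knockout replicate 3. At 12 months Ndufs8 was at 194 and 192 FPKM in controls and 197 and 230.4 FPKM in knockouts, so knockout replicate 1 was barely above the controls. Ndufs3, a core subunit without a metal centre, was at 249.9, 238 and 204 FPKM in controls and 262, 303 and 255 FPKM in knockouts at 3 months. Its groups were apart by a narrow margin, as at 12 months, where it was at 236 and 235 FPKM in controls and 247 and 298 FPKM in knockouts.

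Taking the 6 core genes as a group, the median log2 difference was 0.30 at 3 months, with 3 of 6 apart (20.1% of all genes), and 0.16 at 12 months, with 5 of 6 apart (27.3% of all genes). The 29 other genes had medians of 0.44 and 0.19, with 20 and 15 of 29 apart, beside the same shares. Whether core and other genes differed was not tested, because the genes share their libraries.

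Among the other Ndufs genes, Ndufs6, a zinc-binding subunit added late in assembly, was at 487, 404 and 390.1 FPKM in the 3-month controls and 582, 718 and 515 FPKM in the knockouts. Every knockout was above every control. At 12 months Ndufs6 was at 447 and 456 FPKM in controls and 408 and 542 FPKM in knockouts, so the 2 knockouts fell on either side of the controls. Ndufs4, a subunit whose loss is widely used to model complex I deficiency in mice, was at 102, 77.2 and 77.5 FPKM in the 3-month controls and 102, 118 and 91.5 FPKM in the knockouts, which overlapped. Over the 7 Ndufs genes the median log2 difference was 0.28 at 3 months and 0.14 at 12 months, with 3 and 4 of 7 apart, beside 20.1% and 27.3% of all genes.

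The Ndufa family, which surrounds the quinone module and the base of the membrane arm, had 11 of 12 genes with groups apart at 3 months, where 20.1% of all genes were, and a median log2 difference of 0.48. At 12 months 9 of 12 were apart, where 27.3% of all genes were, with a median of 0.26. Ndufa13 (ENSMUSG00000036199.8, chr8:69894180-69902558, minus strand), also known as Grim19, was at 261, 256 and 234 FPKM in the 3-month controls and 345, 466 and 352 FPKM in the knockouts. The lowest knockout was well above the highest control, and this was the largest difference of the set, 0.62 ± 0.15 (SE). Ndufa13 had an adjusted p of 0.12 (limma), which ran from 0.0973 to 0.428 over the alternative settings. At 12 months it was at 302 and 292 FPKM in controls and 311 and 403 FPKM in knockouts, so knockout replicate 1 lay only just above the controls.

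Ndufa7, a small subunit of the peripheral arm, was at 394, 280.2 and 332 FPKM in the 3-month controls and 476, 622 and 428 FPKM in the knockouts. At 12 months it was at 396 and 379 FPKM in controls and 382 and 582 FPKM in knockouts. It was thus apart at 3 months, while at 12 months only knockout replicate 2 was above the controls.

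Ndufa2, which has a thioredoxin-like fold, was at 434, 366 and 374 FPKM in the 3-month controls and 566, 731 and 489.7 FPKM in the knockouts. Its 12-month values were 342 and 324 FPKM in controls and 332 and 434 FPKM in knockouts. The pattern was that of Ndufa7, with knockout replicate 1 between the controls at 12 months.

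Ndufa5, on the peripheral arm, was at 560.0, 487 and 502 FPKM in the 3-month controls and 672, 912 and 606 FPKM in the knockouts. At 12 months Ndufa5 was at 1076 and 1085 FPKM in controls and 1269 and 1614 FPKM in knockouts. Its groups were well apart at both ages, with log2 differences of 0.48 ± 0.18 (SE) and 0.41 ± 0.16 (SE). Ndufa12, which sits against the quinone module, was at 187, 176 and 159.6 FPKM in controls and 211, 232 and 209.8 FPKM in knockouts at 3 months. At 12 months Ndufa12 was at 171 and 173 FPKM in controls and 189 and 243 FPKM in knockouts. It too was apart at both ages, with the same rounded log2 difference of 0.32 at each.

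Ndufa9 and Ndufa10 are the large Ndufa subunits and had the smallest differences of the family at 3 months. Ndufa9, with a dehydrogenase-like fold, was at 278, 277 and 227 FPKM in the 3-month controls and 287, 282 and 281 FPKM in the knockouts. The groups did not overlap, but the lowest knockout was above the highest control by only a few FPKM (log2 difference 0.13 ± 0.13, SE). At 12 months Ndufa9 was at 352 and 351 FPKM in controls and 382 and 410.1 FPKM in knockouts, which were apart.

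Ndufa10 (ENSMUSG00000026260.12, chr1:92439010-92473860, minus strand), with a nucleoside-kinase-like fold, was at 208, 224 and 170.3 FPKM in the 3-month controls and 213, 215 and 206 FPKM in the knockouts. The knockouts all lay inside the control range (log2 difference 0.08 ± 0.14, SE), and the difference was −0.02 under median-of-ratios scaling. At 12 months Ndufa10 was at 1284 and 1380.2 FPKM in controls and 1592 and 1725 FPKM in knockouts. Both knockouts were above both controls there, with a log2 difference of 0.32 ± 0.12 (SE). Its level within the set also differed between the tables: it was 30 of 35 in order of control mean at 3 months (200.7 FPKM) and 2 of 35 at 12 months (1332 FPKM), the largest change of rank in the set. The ages differ in library preparation and were deposited in separate tables, so age and processing cannot be told apart for such levels.

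Ndufab1, the mitochondrial acyl carrier protein that is held in both arms of the complex, was at 217, 206 and 179.8 FPKM in the 3-month controls and 247, 277 and 212 FPKM in the knockouts. Knockout replicate 3 lay inside the control range. At 12 months it was at 202 and 191 FPKM in controls and 221 and 277 FPKM in knockouts, which were apart.

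The Ndufb genes encode accessory subunits of the membrane arm, toward its far end. Their median log2 difference was 0.43 at 3 months, with 5 of 10 apart (20.1% of all genes), and 0.10 at 12 months, with 3 of 10 apart, near the 27.3% of all genes. Ndufb2 (ENSMUSG00000002416.13, chr6:39592574-39603382, plus strand) was at 535, 401 and 417 FPKM in the 3-month controls and 615, 782 and 576 FPKM in the knockouts, all above the controls. At 12 months Ndufb2 was at 482 and 445 FPKM in controls and 391 and 545 FPKM in knockouts. The controls then lay between the knockouts, and the log2 difference was −0.01 ± 0.20 (SE) where it had been 0.54 ± 0.18 (SE) at 3 months.

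Ndufb6 was at 331, 247 and 258 FPKM in the 3-month controls and 355, 459 and 327 FPKM in the knockouts, with control replicate 1 just above knockout replicate 3. At 12 months Ndufb6 was at 299 and 283 FPKM in controls and 257 and 322 FPKM in knockouts, again on either side of the controls. Ndufb3, in contrast, was at 373, 301 and 296 FPKM in controls and 366, 449 and 354 FPKM in knockouts at 3 months, where the groups overlapped. At 12 months Ndufb3 was at 197 and 193 FPKM in controls and 224 and 299.6 FPKM in knockouts, apart and with the largest 12-month difference of the set, 0.41 ± 0.18 (SE).

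Ndufb4 had the lowest FPKM of the set at both ages, at 23.3, 14.2 and 22.2 in the 3-month controls and 28.1, 32.4 and 26.2 in the knockouts. The highest control means were those of Ndufb9 at 3 months (997 FPKM) and Ndufb8 at 12 months (1499 FPKM), so subunits present in a common complex spanned a wide range of FPKM. The 2 Ndufc genes, also of the membrane arm, were both apart at 3 months (20.1% of all genes), with log2 differences of 0.49 for each. At 12 months Ndufc1 alone was apart (27.3% of all genes), at 0.19 against 0.08 for Ndufc2.

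Ndufa1 and Ndufb11 are X-linked, which bears on the 12-month groups because Xist and the Y-linked genes separated them. Ndufa1 (chrX:37187588-37191163, minus strand), a short membrane-anchored subunit, was at 782 and 779 FPKM in the 12-month controls and 722 and 931 FPKM in the knockouts. Ndufb11 (chrX:20615326-20617619, minus strand), of the membrane arm, was at 499 and 488 FPKM in the 12-month controls and 450.0 and 608 FPKM in the knockouts. For both genes the controls lay between the knockouts, as for many autosomal members, with log2 differences of 0.07 ± 0.17 (SE) and 0.09 ± 0.18 (SE).

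At 3 months, where all libraries had Y-linked transcripts, Ndufa1 was at 619, 586 and 557 FPKM in controls and 750.3, 989 and 749.6 FPKM in knockouts. Ndufb11 was at 508, 433 and 419 FPKM in controls and 571, 759 and 549.9 FPKM in knockouts. Both X-linked genes had groups apart at that age, where 20.1% of all genes did.

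The difference between ages was tested with an interaction contrast over all 10 libraries. Sex-linked expression separated the labels at 12 months only, and the ages differ in library preparation. Age, sex-linked expression and preparation cannot be told apart in this contrast. The knockout-minus-control difference was smaller at 12 than at 3 months in 28 of the 35 genes, where this held for 59.2% of the 11580 genes tested at both ages. The median over the 35 was −0.24, against −0.079 for all genes. No complex I gene passed the test (limma, lowest adjusted p = 0.385, Ndufb2), where 1.38% of all genes did, and none was under an unadjusted p of 0.05, where 15.3% of all genes were. The values farthest from 0 were those of Ndufb2 (−0.55 ± 0.28, SE), Ndufb6 (−0.46 ± 0.27, SE) and Ndufs6 (−0.43 ± 0.26, SE). At the other end Ndufa10 was at 0.23 ± 0.21 (SE). By family the median was −0.28 for Ndufb, −0.19 for Ndufa, −0.18 for Ndufv and −0.16 for Ndufs genes. The 2 Ndufc genes were at −0.42 (Ndufc2) and −0.30 (Ndufc1), and Ndufab1 was at 0.051.

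Transcript length and the scale of the libraries moved with the 3-month difference. Complex I transcripts are short: the 35 genes had a median length of 870.5 bases, from 419 bases for Ndufa1 to 2626 bases for Ndufs1, against a median of 2560 bases over all genes tested at 3 months. Across the 12159 genes with a length, shorter genes had larger 3-month differences (Spearman rho = −0.46, across genes of the same libraries), and across the 35 complex I genes rho was −0.43. The 12-month values were −0.16 for all genes and 0.044 for the 35. The slope of log2 level on length was 0.0019, 0.099 and 0.047 per doubling of length in the 3-month controls and −0.030, −0.11 and −0.010 in the knockouts, so that knockout replicate 2, the highest library for complex I, also had the steepest slope toward short genes. At 12 months the same replicate number stood out, with a slope of −0.063 in knockout replicate 2 and 0.045 in knockout replicate 1.

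**Figure D3:**
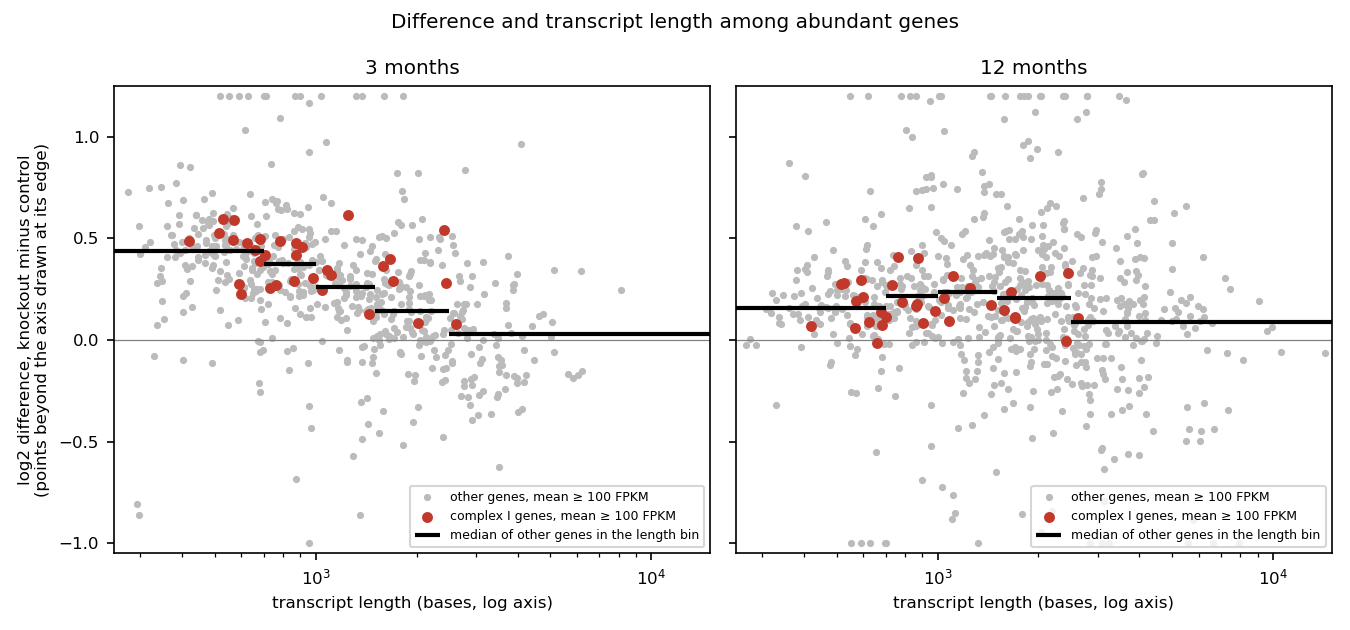
Log2 difference, knockout minus control (y axis), against transcript length in bases (log x axis) for genes averaging 100 FPKM or more, with complex I genes in red, other genes in grey and black bars for the median of the other genes in each length bin. At 3 months the bars step down from 0.44 at up to 700 bases to 0.03 above 2500 bases, and at 12 months they lie between 0.09 and 0.23.

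The complex I genes were set beside other genes of like length, first among abundant genes. Among genes of at least 100 FPKM at 3 months and up to 700 bases, the 11 complex I genes had a median log2 difference of 0.49 and the 176 others 0.44. Between 700 and 1000 bases the medians were 0.42 for 9 complex I genes and 0.37 for 99 others, and between 1000 and 1500 bases 0.32 for 5 and 0.26 for 95. The gap was wider between 1500 and 2500 bases, at 0.33 for 6 complex I genes (among them Ndufb2, Ndufv1 and Ndufv3) and 0.14 for 131 others. In these bins the 12-month complex I medians were 0.14, 0.18, 0.21 and 0.15, and those of the other genes 0.16, 0.22, 0.23 and 0.21.

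Beside all genes tested, whatever their level, the 3-month gaps were wider up to 1000 bases and not above. In the same 4 bins the 3-month medians were 0.49, 0.42, 0.32 and 0.29 for 12, 10, 5 and 7 complex I genes and 0.33, 0.31, 0.26 and 0.14 for the others. The 12-month medians were 0.16, 0.18, 0.21 and 0.15 for complex I and 0.088, 0.097, 0.077 and 0.031 for the others. In these 4 bins the 12-month complex I medians were thus below those of abundant genes and above those of all other genes tested.

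With each library corrected for its trend on transcript length, the 3-month median of the 35 genes was 0.13, with 27 of 35 higher and 10 apart, against 10.9% of all genes apart. The library medians then overlapped, with control replicate 1 at 0.084 over the control mean and knockout replicate 3 at 0.038. Ndufa13 and Ndufb2 kept the largest 3-month differences among the named genes, at 0.37 and 0.45. The correction depends on the length assigned to each gene, which was 2413 bases for Ndufb2. The 12-month median was 0.095, with 29 higher and 22 apart, against 27.4% of all genes. The contrast between ages then had a median of −0.042, with 13 of 35 above 0. The part of transcript length in the differences was not tested beyond this correction, which also removes any difference that is shared by short genes for another reason.

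**Figure D4:**
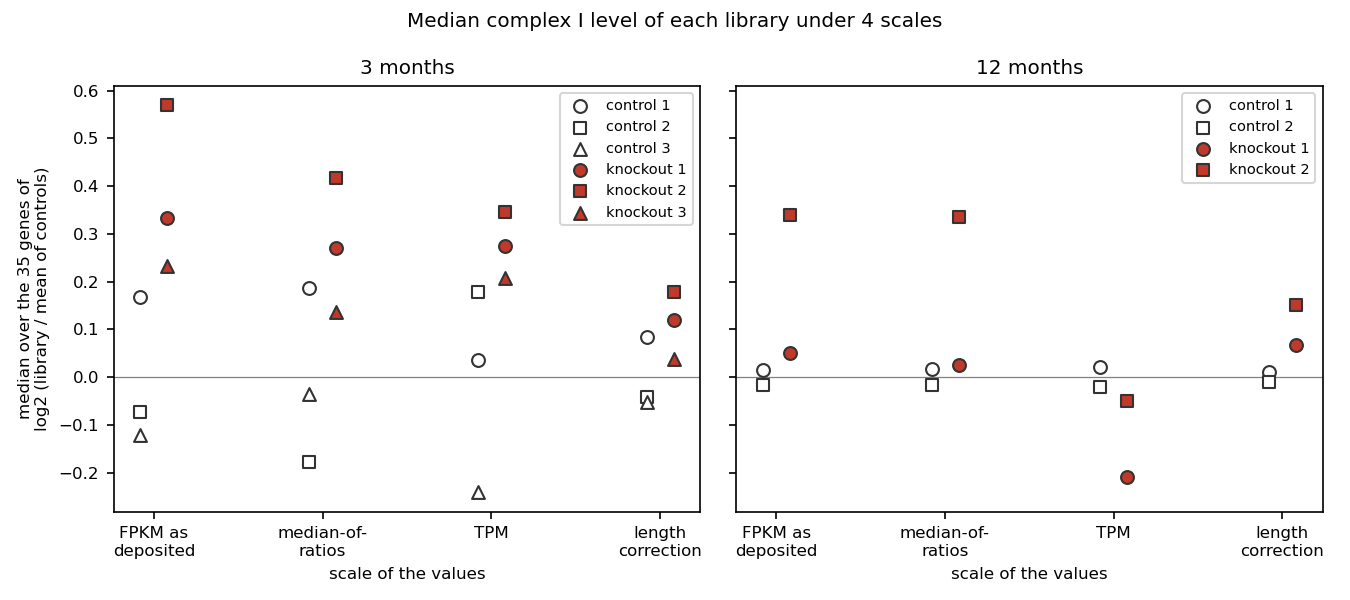
Median over the 35 complex I genes of the log2 ratio to the control mean (y axis) for each library (symbols; open for controls, filled for knockouts) on 4 scales of the values (x axis). On the TPM scale both 12-month knockouts lie below the controls, at −0.05 and −0.21, and on the other scales they lie above them. At 3 months control replicate 1 lies above knockout replicate 3 on the median-of-ratios and length-correction scales.

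Median-of-ratios scaling sets the libraries to a common typical gene. At 3 months the median of all genes was 0.0029 on this scale, where it was 0.088 as deposited. The complex I median was then 0.30, with 33 of 35 higher and 13 apart, against 12.7% of all genes. Ndufs1 and Ndufa10 were the exceptions in sign. The library medians overlapped on this scale, with control replicate 1 at 0.187 and knockout replicate 3 at 0.136. By family the 3-month medians on this scale were 0.38 for Ndufa, 0.33 for Ndufb, 0.26 for Ndufv and 0.17 for Ndufs genes. Ndufc2 and Ndufc1 were at 0.391 and 0.384, and Ndufab1 was at 0.177. The 12-month median was close to that of the deposited values, at 0.16, with 33 of 35 higher and 19 apart, against 25.4% of all genes.

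On the TPM scale, where each library sums to the same total, the 12-month median of the 35 genes was −0.14, with 3 of 35 higher and 20 with every knockout below every control, against 57.7% of all genes. The median of all 13179 genes was −0.27 on that scale, so the median of the complex I genes was above that of all genes on each of the 4 scales at both ages. The 12-month libraries summed to 890181 and 897425 FPKM in controls and 1070016 and 1171104 FPKM in knockouts, and mitochondrially encoded genes took 20.8% and 21.1% of that sum in controls and 28.7% and 24.6% in knockouts. At 3 months the mitochondrial share was 36.1%, 17.3% and 42.0% in controls and 24.9%, 23.8% and 24.0% in knockouts. These shares, the shares below and the 3-month TPM scale include mitochondrial transcripts that were listed at 0 in control replicate 2 and in knockout replicates 1 and 3, which lowers the sums of those libraries. The 35 complex I genes took 1.85% to 2.53% of summed FPKM in the 3-month controls and 2.53% to 2.89% in the knockouts, and 1.95% to 2.0% against 1.69% to 1.93% at 12 months.

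The 7 complex I subunits encoded in mitochondrial DNA were looked at separately. At 12 months mt-Nd1 was at 28159 and 28615 FPKM in controls and 49437 and 49509 FPKM in knockouts. Similarly, mt-Nd4 was at 10033 and 10264 FPKM in controls and 17262 and 16356 FPKM in knockouts. Both knockouts were above both controls for these genes and for mt-Nd2, with log2 differences of 0.80 ± 0.13, 0.73 ± 0.13 and 0.77 ± 0.15 (SE), and none passed the test (limma, lowest adjusted p = 0.184). All 6 that were tested at 12 months were higher, where 51.5% of all genes were. Their median was 0.52, where the nuclear genes had 0.18. The groups overlapped for mt-Nd5, at 14239 and 14777 FPKM in controls and 19580 and 13489 FPKM in knockouts. They also overlapped for mt-Nd3, which entered the median at only 2.70 and 4.92 against 2.48 and 8.75 FPKM. Such a low value can be a failed estimate.

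At 3 months mt-Nd4 was at 32603, 37114 and 41648 FPKM in controls and 33277, 18762 and 29433 FPKM in knockouts, and knockout replicate 2, the highest library for the nuclear genes, was the lowest. The 3-month file listed mt-Nd1 at 0 in control replicate 2 and knockout replicates 1 and 3, and mt-Nd2, mt-Nd5 and mt-Nd6 at 0 in control replicate 2. A 0 for such abundant transcripts can be a failed estimate, so no difference is drawn from these genes at 3 months, and mt-Nd4l, listed at 0 in every 12-month library, was left aside as well.

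Assembly factors of complex I, which build the enzyme without remaining in it, were nearer to the typical gene. Of 17 tested at 3 months 10 were higher and 5 apart upward, with a median of 0.094, where 65.0% of all genes were higher and 20.1% apart upward. At 12 months 11 were higher, 7 apart upward and 3 apart downward, with a median of 0.082, where 51.5% of all genes were higher, 27.3% apart upward and 23.0% apart downward. None passed the test at either age. Transcript lengths of the assembly factors ran from 465 to 3930 bases, where the 35 subunit genes had a median of 870.5 bases. These values carry no length correction, and the part of transcript length in this contrast was not tested. Ndufaf3 was at 25.5, 24.7 and 21.9 FPKM in the 3-month controls and 30.1, 35.8 and 28.99 FPKM in the knockouts. Timmdc1, a membrane-arm assembly factor, was at 21.2, 21.6 and 18.8 FPKM in controls and 24.2, 26.5 and 27.9 FPKM in knockouts. Both had groups apart, in the direction of the subunits. At 12 months Nubpl, which delivers iron-sulfur clusters to complex I, was at 3.55 and 3.82 FPKM in controls and 5.63 and 6.40 FPKM in knockouts. Ndufaf4, a further assembly factor, was lower in both knockouts, at 46.3 and 47.2 FPKM in controls and 40.3 and 36.05 FPKM in knockouts.

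Nuclear genes of the other respiratory complexes had 3-month medians on the same side. The median log2 difference was 0.17 over 4 complex II genes, 0.29 over 9 complex III genes, 0.43 over 13 complex IV genes and 0.31 over 16 ATP synthase genes, beside 0.40 for complex I. All complex III and IV genes tested, 15 of 16 ATP synthase genes and 3 of 4 complex II genes were higher, where 65.0% of all genes were. Sdha, of complex II, was the exception there at −0.19. Groups were apart in 5 of 9, 7 of 13, 10 of 16 and 1 of 4 genes, where 20.1% of all genes were, and none passed the test. The 12-month medians were 0.071, 0.083, 0.11 and 0.10, beside 0.18 for complex I. Whether the complex I genes differed from the other nuclear respiratory genes was not tested.

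Transcriptional regulators of mitochondrial genes, 14 in number, had medians of −0.10 at 3 months and −0.11 at 12 months. Of the 14, 6 and 5 were higher, where 65.0% and 51.5% of all genes were. Their transcript lengths ran from 1768.5 to 6464 bases. These values carry no length correction, and the part of transcript length was not tested. Tfam, which maintains and transcribes mitochondrial DNA, was at 12.6, 12.8 and 10.7 FPKM in the 3-month controls and 13.2, 15.05 and 14.7 FPKM in the knockouts, which were apart. At that age 20.1% of all genes were apart upward. Gabpa, an ETS-family activator of respiratory genes, was at 39.3 and 34.5 FPKM in the 12-month controls and 29.7 and 28.5 FPKM in the knockouts. Yy1, a zinc-finger regulator, was at 13.5 and 12.4 FPKM in the 12-month controls and 18.03 and 15.8 FPKM in the knockouts. None of the 14 passed the test at either age.

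As the nuclear genes all had differences above 0 at 3 months, the 250 bases before their RefSeq starts (GRCm38.p6) were searched on both strands for the letters of 4 motifs of such regulators. The promoter table held 32 of the 35 genes, without Ndufa2, Ndufb9 and Ndufs1. The NRF1 motif (GCGCA, any base, then GCGC) was present in 6 of 32 (18.8%), against 9.49% of the genes tested at 3 months and 4.23% of all genes in the table. The motif AANATGGC of YY1 was present in 5 of 32 (15.6%, against 5.4% and 4.49%), the ETS motif CCGGAAG in 3 (9.38%, against 16.0% and 7.83%) and the estrogen-related receptor motif TNAAGGTCA in 1 (3.12%, against 0.814% and 1.3%). These windows of 30 bases on the gene's strand, 5′ to 3′, show each NRF1 match in capitals, since this was the motif held by most members, and then the single receptor match:
Ndufa5, chr6:24527697-24527726: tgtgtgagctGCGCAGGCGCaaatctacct
Ndufa8, chr2:36049349-36049378: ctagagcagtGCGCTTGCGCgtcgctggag
Ndufa11, chr17:56717692-56717721: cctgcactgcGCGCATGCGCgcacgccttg
Ndufs5, chr4:123718265-123718294: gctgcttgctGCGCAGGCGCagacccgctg
Ndufs6, chr13:73328483-73328512: ccgccgactgctgtGCGCCTGCGCcggcac
Ndufb4, chr16:37654371-37654400: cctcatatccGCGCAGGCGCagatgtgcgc
Ndufb4, chr16:37654428-37654457: ccttgtgcgcGCGCAGGCGCacttcctgag
Ndufb4, chr16:37654540-37654569: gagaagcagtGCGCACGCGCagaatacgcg
Ndufb4, receptor motif, chr16:37654406-37654435: ttcctgagccTGAAGGTCAgactcgagagg

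Ndufa11 is on the plus strand and the others on the minus strand. The letters were read on the opposite strand in Ndufa8 and Ndufs6 and on both strands in Ndufa11, whose match is its own reverse complement. Ndufb4, the lowest gene of the set in FPKM, held 3 NRF1 matches and the receptor match, which do not overlap one another. The 6 genes with NRF1 letters had a median log2 difference of 0.49 at 3 months, from 0.23 (Ndufs5) to 0.54 (Ndufb4), and the 26 without had 0.38, from 0.08 to 0.62. The 12-month medians were 0.22 and 0.18. The ranges of genes with and without the letters overlapped at both ages, and a match of letters is a description of the sequence, not of binding.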

How the data were processed

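The deposited values are FPKM made by the authors, in 1 table per age with 1 column per library. FastQC, TopHat2 2.1.0, STAR 2.5.1b, Cufflinks 2.1.1, mm10 and GRCm38 are named in the submitters' processing notes, and the sources used here do not give their roles. The labels describe stranded poly(A) libraries at 3 months and preparation at a sequencing institute at 12 months. By its name, the 12-month table leaves out unspecified outliers. FPKM depends on each library's total and on the transcript models, so a shift in abundant transcripts moves every other gene.

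In the 3-month table (46855 rows), 69 repeated identifiers were summed. Symbols and lengths came from GENCODE M21 (46297 and 46484 identifiers matched). Length was the median spliced length of the principal transcripts. Genes averaging 1 FPKM or more were tested per age on log2(FPKM + 1) with limma 3.58.1 in R 4.3.3 (trend, Benjamini-Hochberg adjustment over all genes tested, threshold 0.05). A fold on this scale understates low genes. Groups were called apart when no knockout value overlapped a control value. The interaction contrast used all 10 libraries. Levels were not tested between ages. The length correction subtracted, in each library, a lowess curve (span 0.3) of log2 level on log2 length. The fits were checked on simulated data.

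Low values fell on steps of whole reads (within 0.05) for 79.1% to 81.3% at 12 months, which gave 29.5 and 31.0 M reads for controls and 26.3 and 21.6 M for knockouts. At 3 months 18.3% to 29.2% did, and the depth is unknown. No count test was run.

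The members, lists and motifs were chosen with earlier results of these data known. Values in every library are given for 20 members: the 6 core subunits, the X-linked genes, per age the 4 largest and 3 smallest differences, and the 3 largest changes between ages. Ndufs4, Ndufb4 and the ranks of level were added after their values were seen. From the other gene lists at most the 3 genes of lowest p are named. Cell type markers are named to show which went with or against a summed level. Alternatives were other scalings, pseudocounts, filters, a replicate block, length corrections and leaving out each library.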

Additional observations from a re-analysis of the deposited data

How the results depend on the processing

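At 3 months, 12 months and for the change between ages, the medians kept their direction under every alternative except TPM scaling at 12 months, and no alternative that kept all libraries called any of the 35 genes. At 3 months the count of genes with groups apart was 23 as deposited, where 20.1% of all genes were apart. It was 13 with median-of-ratios scaling (12.7% of all genes) and 10 with the length correction (10.9% of all genes, median 0.13). With lengths from the longest transcript, an alternative added after seeing the data, it was 11 (median 0.16), and the share over all genes is not given. At 12 months TPM scaling gave a median of −0.14, 3 genes higher and 0 apart upward. The change between ages had a median of −0.46 with TPM scaling (1 gene above 0), −0.042 with the length correction (13 above 0) and −0.037 with the longest transcript (13 above 0), and 11 genes were above 0 with median-of-ratios scaling. The cause of these moves was not tested.

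Single genes changed sign as follows. With median-of-ratios and TPM scaling at 3 months Ndufs1 was at −0.025 and −0.025 and Ndufa10 at −0.021 and −0.020. With the length correction at 3 months Ndufa9 was at −0.092, Ndufs3 −0.028, Ndufb3 −0.037 and Ndufa10 −0.052, and with the longest transcript Ndufa9 −0.12, Ndufs3 −0.039, Ndufs1 −0.032, Ndufb3 −0.035 and Ndufa10 −0.088. At 12 months the length correction gave −0.021 for Ndufa1 and −0.037 for Ndufs6, and the longest transcript −0.011, −0.028 and, for Ndufb2, 0.0079. TPM scaling at 12 months gave Ndufa9 −0.15, Ndufs3 −0.12, Ndufa2 −0.13, Ndufa1 −0.25, Ndufa12 −0.0072, Ndufs7 −0.14, Ndufs6 −0.27, Ndufv2 −0.21, Ndufs1 −0.22, Ndufa10 −0.0089, Ndufb11 −0.24, Ndufa13 −0.070, Ndufv1 −0.087, Ndufa7 −0.042 and Ndufs8 −0.18.

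Leaving out each library in turn gave 3-month medians from 0.29 to 0.48, with 0 genes called and 33 to 35 higher. The 12-month medians ran from 0.050 to 0.34, with 0 to 30 called, 22 to 35 higher and 20 to 35 apart; the extremes came from leaving out knockout replicate 2 and knockout replicate 1. The change between ages ran from −0.37 to −0.045, with 0 called and 2 to 13 genes above 0. Ranges that crossed 0 were −0.036 to 0.15 for Ndufs1 and −0.031 to 0.16 for Ndufa10 at 3 months, and at 12 months −0.25 to 0.23 for Ndufb2, −0.18 to 0.15 for Ndufb6, −0.14 to 0.26 for Ndufs6, −0.13 to 0.30 for Ndufb11, −0.11 to 0.25 for Ndufa1, −0.076 to 0.30 for Ndufv2, −0.021 to 0.59 for Ndufa7 and −0.0027 to 0.38 for Ndufa2.

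With the replicate block, 0 of the 35 genes were called at 3 months, at 12 months or between ages, and the medians stayed at 0.40, 0.18 and −0.24. Deviations from the group means correlated at −0.12, −0.46 and −0.14 between 3-month libraries of the same number, and at −0.006 and −0.006 at 12 months. With 2 libraries per group the deviations mirror each other, so the 12-month values are 1 number repeated. Deviations within a group also sum to 0, so these correlations cannot decide whether the numbers pair the libraries. The 12-month comparison has 2 libraries per group, which limits its precision, and the 3-month depth is unknown.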
